A study of Mus musculus with 4 samples.

Results

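The 7 genes Acp5, Ctsk, Oscar, Dcstamp, Ocstamp, Nfatc1 and Calcr mark the differentiation, fusion and resorptive work of osteoclasts. They were chosen by name from the 31053 genes of a single-cell count matrix, and all 7 had a row there. The cells came from the proximal and distal tibia of 1 male mouse at postnatal day 6, pooled from its 2 tibiae. The mouse carried Col10a1Cre, Rosa26-Tdtomato, Irx3 +/Δ and Irx5 +/-, and the labels call it the heterozygous control. Cre was under the control of the gene for collagen X, so the reporter marks hypertrophic chondrocytes and their descendants and was not designed to mark osteoclasts. The 4 sequencing entries hold 1 library that was counted together. All cells share the heterozygous Irx5, whereas the Irx3 deletion was driven by this Cre in the lineage of hypertrophic chondrocytes. There is no second mouse, and cells are not replicates. The values below carry counting error alone and no test was run.

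Osteoclasts are bone-resorbing cells that arise from precursors of the monocyte and macrophage lineage under the cytokines CSF1 and RANKL. Signals from the RANK receptor and from co-receptors that pair with ITAM adaptors raise NFATc1, the transcription factor regarded as the master regulator of the lineage. NFATc1 with PU.1, MITF and AP-1 drives genes of fusion and resorption, and the mononuclear precursors fuse into large cells with many nuclei that acidify and digest bone matrix. In the growing tibia such cells gather where cartilage is replaced by bone.

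Transcripts were counted by unique molecular identifiers (UMIs). Cells with at least 1600 genes and at most 10% mitochondrial UMIs were kept, which left 8256 of 14181 barcodes with a median of 13957.5 UMIs. They formed 35 clusters, of which 23 were named from marker lists without the 7 genes, which were also left out of the genes used for clustering. The rule that applied the lists was set after the clusters had been seen. It left 12 clusters with 1281 cells (15.5%) unnamed, and 229 of these cells were marked as doublets by Scrublet. Class levels are UMIs of a gene for every 1000000 UMIs of the class (CPM), and all intervals are at 95% and cover counting error only. A class at 0 has a limit of 3 counts. In a droplet library, free RNA can give UMIs in cells that do not make a transcript, so each level is set beside classes of other lineages.

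The osteoclast-like class held 172 cells (2.08% of those kept) with a median of 23722 UMIs, deeper than the macrophage-like (110 cells, median 14017 UMIs) and monocyte-like classes (173 cells, median 13902 UMIs). Scrublet marked 0 cells of these 3 classes. The name rested on genes outside the 7, of which Atp6v0d2, a subunit of the proton pump, stood at 405 CPM in osteoclast-like, 9.34 in macrophage-like and 0.38 in monocyte-like cells. Of its 9 markers, 8 reached 10 CPM, and Siglec15, at 1.19 CPM, did not. Together the 9 stood at 2311 CPM, against 301 in macrophage-like and 31.5 in monocyte-like cells. Mmp9 alone held 1277 CPM of this sum, against 18.1 CPM in macrophage-like and 6.91 CPM in monocyte-like cells. It was also found in skeletal cells, at 170 CPM. The folds of the 9 markers were uneven. Against macrophage-like cells Ckb stood at 315 to 202 CPM and Tnfrsf11a at 118 to 46.1 CPM. Cd109, at 79.3 CPM, was lower than in skeletal cells (103 CPM). Macrophage markers were also found in osteoclast-like cells, since the complement gene C1qa stood at 432 CPM against 3855 in macrophage-like cells. Of the 11 macrophage markers, 10 had a UMI in osteoclast-like cells and Cd5l was at 0, and together they stood at 1454 CPM against 12491 in macrophage-like cells. Their part in the levels of the 7 genes was not tested.

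In the osteoclast-like class 6 of the 7 genes were found and Calcr was not. Summed over the 7 genes the level was 5614 CPM. Acp5 held 2973 CPM and Ctsk 2247 CPM of it, so the sum mostly describes these genes. Of the 7 genes, 5 were at least 4-fold higher in osteoclast-like than in macrophage-like cells, a size that 2.24% of the 8064 genes with at least 10 CPM in either class reached. Against monocyte-like cells 6 of the 7 were at least 4-fold higher, where 6.84% of 8036 genes were. Against the 3405 skeletal cells, that is the chondrocyte-like, hypertrophic chondrocyte-like, osteoblast-like, stromal progenitor-like and fibroblast-like cells together, 5 of the 7 were, where 8.37% of 8824 genes were. None of the 7 was at least 4-fold lower in any of these 3 comparisons, where 6.89%, 7.12% and 15% of genes were. Calcr could not be called lower, with 0 UMIs in macrophage-like and monocyte-like cells. In skeletal cells it stood at 0.0895 CPM, under the 0.715 CPM that a count of 0 allows in osteoclast-like cells. Only Acp5, Ctsk, Dcstamp, Ocstamp and Nfatc1 reached 10 CPM. Oscar, at 4.77 CPM, was counted as higher against monocyte-like and skeletal cells, although the shares of all genes leave out genes that low. The summed level depended on the cells admitted. It was 3100 CPM with a limit of 5% mitochondrial UMIs, 6845 CPM with a limit of 20%, and 2673 CPM with a minimum of 1000 genes, where 62 cells led by Atp6v0d2 and Mmp9 stayed unnamed. A finer second clustering, tried after the data had been seen, left 74 osteoclast-like cells with 9761 CPM.

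**Figure D1:**
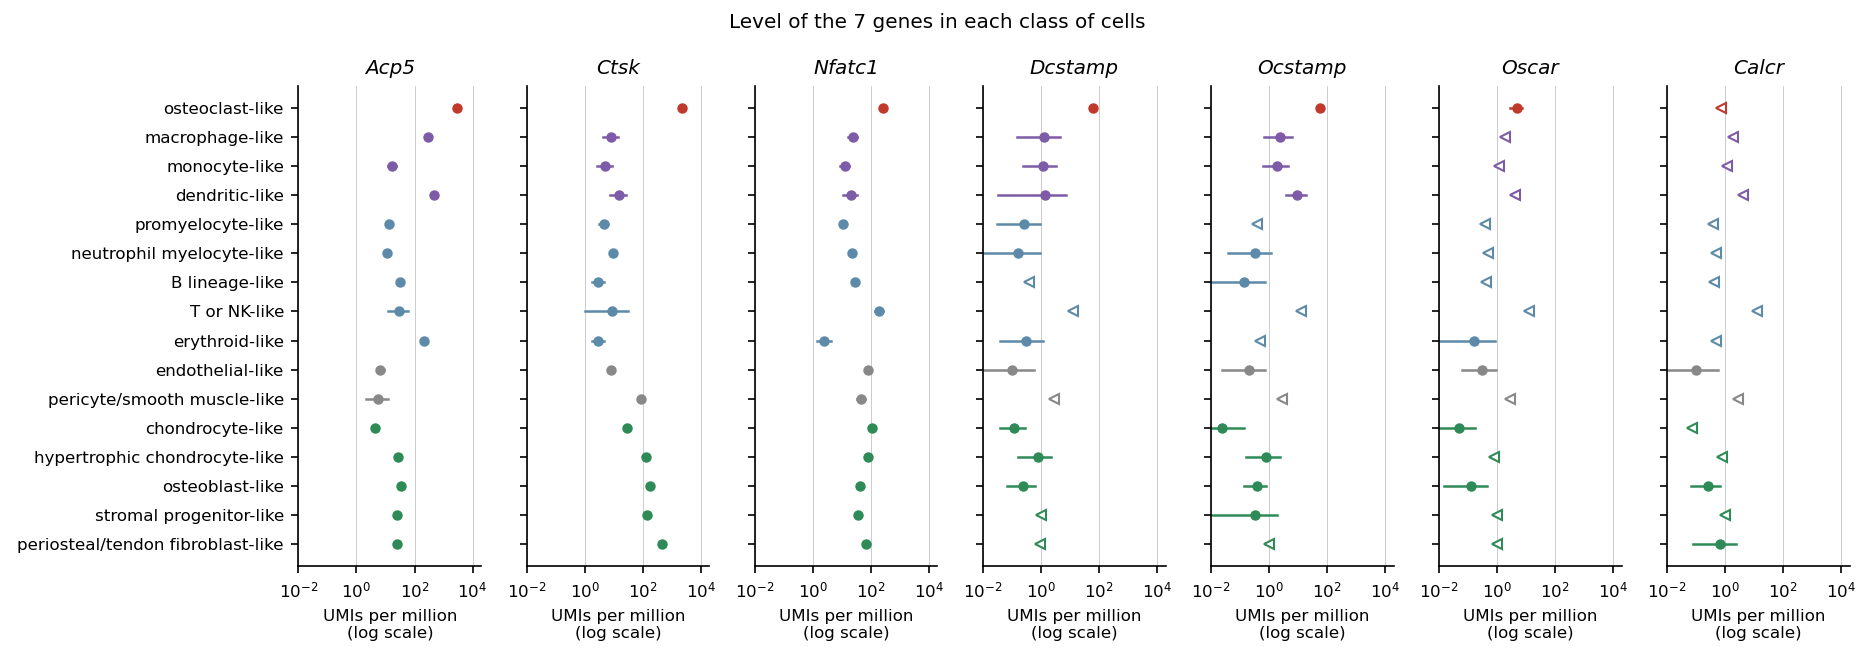
Level of each of the 7 genes, in CPM on a log scale, in the 16 named classes of cells. Points are class sums with 95% Poisson intervals, and open triangles mark the limit of 3 counts where a class had 0 UMIs. By class sum, osteoclast-like cells (red) have the highest level of 6 genes. For Nfatc1 the T or NK-like interval overlaps the osteoclast-like one. For Oscar, 3 counts in the T or NK-like class would be 12.9 CPM, above the osteoclast-like level of 4.77. Ctsk and Nfatc1 are also found in skeletal classes (green), and Calcr is at or near its limit throughout.

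Acp5 encodes tartrate-resistant acid phosphatase, the enzyme stained to show osteoclasts in tissue sections (ENSMUSG00000001348; GRCm38 chromosome 9, 22126727 to 22135711, minus strand). In osteoclast-like cells it had 12477 UMIs, or 2973 CPM (2921 to 3026), and 165 of 172 cells had a UMI. The lowest cell was at 0, the median cell at 1991 CPM and the highest at 12414 CPM. These cells held 68.8% of all Acp5 UMIs of the cells kept.

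Among the named classes, the next levels of Acp5 were those of other blood cells. Unnamed clusters are left out of this order, and some, as that led by haemoglobin genes and Atp6v0d2, stood above dendritic-like cells. Dendritic-like cells, led by genes of MHC class II, stood at 452 CPM (405 to 503), macrophage-like cells at 301 CPM (274 to 329) and erythroid-like cells at 209 CPM (198 to 221). These intervals do not overlap. The dendritic-like name rests on MHC class II genes and Cd74 alone. Flt3, Xcr1 and Clec9a had 1 UMI each there and Cd209a had 0. The macrophage marker C1qb stood at 2365 CPM in this class, against 3652 in macrophage-like cells, so the 2 classes are not cleanly apart. The osteoclast-like level was 6.58-fold that of the dendritic-like (5.90 to 7.36), 9.89-fold that of the macrophage-like (9.03 to 10.9) and 14.2-fold that of the erythroid-like cells (13.4 to 15.0). Monocyte-like cells had 45 UMIs, or 17.3 CPM (12.6 to 23.1), 172-fold less (129 to 236). All skeletal cells together stood at 14.4 CPM (13.5 to 15.3), with osteoblast-like cells at 33.4 CPM and chondrocyte-like cells at 4.45 CPM, the lowest class. Between these, B lineage-like (31.9 CPM), osteoblast-like and T or NK-like cells (30.1 CPM) did not differ beyond their intervals. As a log2 ratio with 1 CPM added, Acp5 stood at 7.35 over monocyte-like cells, and at 4.31 when Scrublet barcodes were left out before clustering. Over macrophage-like cells it was 3.30, with a range of 2.60 to 4.01 over the alternatives.

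Thinning each cell to 5000 UMIs put the classes at 1 depth. Cells with fewer UMIs were left out of these shares. They were 0 of 172 osteoclast-like, 89 of 815 endothelial-like and 137 of 695 B lineage-like cells. A UMI of Acp5 then remained in 156 of 172 osteoclast-like cells, or 90.7% (85.3 to 94.6), in 72.0% of 75 dendritic-like (60.4 to 81.8), 60.6% of 109 macrophage-like (50.7 to 69.8) and 58.9% of 467 erythroid-like cells (54.3 to 63.4). In monocyte-like cells the share was 5.23% (2.42 to 9.70), which overlaps that of endothelial-like cells, 2.62% (1.58 to 4.06; median depth 9002 UMIs), whereas the class levels of 17.3 and 6.71 CPM do not overlap in their intervals (5.19 to 8.54 in endothelial-like cells). The part of free RNA in them was not tested. Before thinning, the shares were 95.9% of osteoclast-like, 84.5% of macrophage-like, 83.1% of erythroid-like, 18.5% of monocyte-like and 5.64% of endothelial-like cells.

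Ctsk encodes cathepsin K, the cysteine protease that cleaves bone collagen (ENSMUSG00000028111; GRCm38 chromosome 3, 95499256 to 95509362, plus strand). It had 9429 UMIs in osteoclast-like cells, or 2247 CPM (2202 to 2293), and a UMI in 103 of the 172 cells. The lowest cell was at 0, the median cell at 90.7 CPM and the highest at 14161 CPM, so that Ctsk was spread less evenly over these cells than Acp5. Macrophage-like and monocyte-like cells had 13 UMIs each, at 8.09 CPM (4.31 to 13.8) and 4.99 CPM (2.66 to 8.53), which do not differ beyond their intervals. The osteoclast-like level was 278-fold the macrophage-like (162 to 522) and 450.5-fold the monocyte-like level (263 to 846). The thinned shares of the latter, 3.67% (1.01 to 9.13) and 1.74% (0.36 to 5.01), overlap those of erythroid-like (1.93%, 0.88 to 3.63) and B lineage-like cells (1.61%, 0.74 to 3.04; median depth 8130 UMIs), and no expression is read from them. On the log2 scale with 1 CPM added, the ratio over monocyte-like cells was 8.55, and it was 3.74 without Scrublet barcodes, 6.77 with at most 5% mitochondrial UMIs and 6.87 with at least 1000 genes. The ratio over macrophage-like cells was 7.95, and 5.47 and 6.01 under the last pair.

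Among named classes other than the osteoclast-like, Ctsk belonged to the skeletal side. Periosteal or tendon fibroblast-like cells stood at 471.5 CPM (448 to 496), osteoblast-like cells at 183 CPM (176 to 189.8), stromal progenitor-like cells at 139 CPM (126 to 153) and hypertrophic chondrocyte-like cells at 131 CPM (119.9 to 143). The last pair do not differ beyond their intervals. Pericyte or smooth muscle-like cells followed at 88.9 CPM (71.8 to 109) and chondrocyte-like cells at 28.8 CPM (27.2 to 30.5). The osteoclast-like level was 4.77-fold that of the fibroblast-like cells (4.51 to 5.04), and over all skeletal cells the fold was 23.3 (22.6 to 24.1).

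Within the fibroblast-like class, the cluster led by Aspn and Postn had 670.3 CPM of Ctsk (625 to 718) and a UMI in each of its 121 cells. The cluster led by Mfap5 and Tnmd, the latter a gene of tendon, had 346 CPM (319.6 to 373) in 144 of 162 cells. After thinning, 77.6% of fibroblast-like (72.2 to 82.4) and 54.4% of osteoblast-like cells (51.1 to 57.6) had a UMI of Ctsk, against 50.6% of osteoclast-like cells (42.9 to 58.3). The fibroblast-like share was thus the larger and the osteoblast-like share overlapped, although both levels were lower. The osteoclast-like share is that of a mixed class. Its sub-clusters, described below, ran from 548 CPM of Ctsk in C1q-rich to 5457 CPM in Mmp9-rich cells. Among osteoblast-like cells, the cluster led by Bglap stood at 207 CPM (198 to 216).

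The ratio of Acp5 to Ctsk UMIs differed between some classes and overlapped between others. It was 1.32 in osteoclast-like cells (1.29 to 1.36), 37.2 in macrophage-like (21.5 to 70.3), 30.2 in dendritic-like (16.7 to 61.1) and 69.4 in erythroid-like cells (44.2 to 116). In fibroblast-like cells it was 0.052 (0.041 to 0.066), in osteoblast-like cells 0.183 (0.166 to 0.200) and in chondrocyte-like cells 0.154 (0.132 to 0.181). In neutrophil myelocyte-like cells, at 11.4 CPM of Acp5, the ratio was 1.19 (0.827 to 1.72), which overlaps the osteoclast-like interval. Monocyte-like cells had a ratio of 3.46 (1.84 to 6.99), promyelocyte-like cells 2.80 (1.89 to 4.25) and endothelial-like cells 0.825 (0.586 to 1.16). Within the osteoclast-like class itself the ratio ran from 1.04 to 2.77 over its sub-clusters. The monocyte-like and promyelocyte-like intervals hold the upper of these values and the endothelial-like interval the lower. The part of free RNA in these ratios was not tested. The overlap of Acp5 with the opposite-strand transcript 6530413G14Rik bears on its counts only if counting ignored strand, a setting the sources used here do not name.

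**Figure D2:**
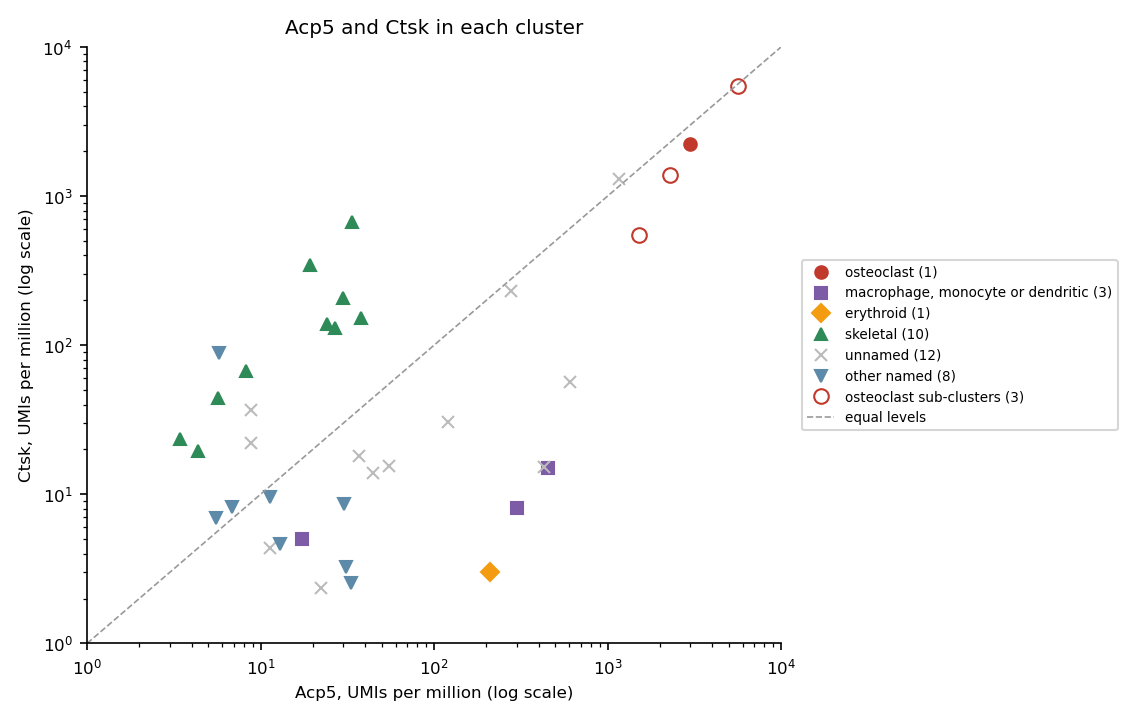
Level of Acp5 (x axis) and Ctsk (y axis), both in CPM on log scales, in the 35 clusters and, as open circles, in the 3 osteoclast-like sub-clusters. The dashed line marks equal levels. Osteoclast-like cells lie near it, skeletal clusters above it with more Ctsk than Acp5, and macrophage-like, dendritic-like and erythroid-like clusters far below it.

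Promoter windows of RefSeq (GRCm38.p6), from 250 bases before to 50 after a start, were at hand for 4 of the 7 genes in 7 windows. They are shown for Ctsk, Oscar and Acp5, as an account of the letters in front of them. By class sum these 3 genes were highest in osteoclast-like cells, for Oscar on 20 UMIs only. Capitals mark, on either strand, the NFAT core GGAAA, the PU.1 core GAGGAA and the E-box form CATGTG that MITF and TFE factors bind. A GAGGAA followed by A also holds GGAAA, as in the last capitals of the Oscar window. The Ctsk window is chr3:95498960-95499259 (plus strand), the Oscar window chr7:3616108-3616407 (minus) and the Acp5 window chr9:22130549-22130848 (minus), 1 of the 3 starts listed for Acp5. All read 5′ to 3′ in the direction of the gene.
Ctsk: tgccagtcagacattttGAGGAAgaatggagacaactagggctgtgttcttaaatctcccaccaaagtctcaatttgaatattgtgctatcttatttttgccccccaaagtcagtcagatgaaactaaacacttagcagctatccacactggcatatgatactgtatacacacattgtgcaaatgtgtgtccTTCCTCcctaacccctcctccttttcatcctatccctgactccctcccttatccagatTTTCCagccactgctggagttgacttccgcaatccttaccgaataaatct
Oscar: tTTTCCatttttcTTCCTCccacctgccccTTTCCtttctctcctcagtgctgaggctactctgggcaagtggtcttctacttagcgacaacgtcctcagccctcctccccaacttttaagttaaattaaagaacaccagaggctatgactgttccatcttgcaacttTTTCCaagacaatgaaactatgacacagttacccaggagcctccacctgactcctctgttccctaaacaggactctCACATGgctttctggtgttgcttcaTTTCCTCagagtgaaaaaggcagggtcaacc
Acp5: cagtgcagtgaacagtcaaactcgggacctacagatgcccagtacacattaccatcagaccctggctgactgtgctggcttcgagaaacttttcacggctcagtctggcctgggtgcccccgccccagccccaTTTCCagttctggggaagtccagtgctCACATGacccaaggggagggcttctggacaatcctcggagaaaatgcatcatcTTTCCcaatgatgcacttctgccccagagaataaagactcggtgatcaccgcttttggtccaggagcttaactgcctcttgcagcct

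The Ctsk window held 1 NFAT core and 2 PU.1 cores, the Oscar window 4 and 2, with 1 CATGTG. The Acp5 window above had 2 NFAT cores and 1 CATGTG, and the other Acp5 windows had 1 NFAT core each. Calcr had 1 NFAT core in 1 of its windows. The AP-1 motif TGANTCA and the E-box CACGTG matched in none of the 7 windows. Of 32851 promoters of this length, 61.3% held an NFAT core, 28.3% a PU.1 core, 14.2% CATGTG, 7.15% CACGTG and 7.81% the AP-1 motif, and 72.3% held an E-box of any form (CANNTG). Such matches are letters, not sites, and nothing in these counts bears on binding.

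Dcstamp and Ocstamp encode membrane proteins that precursors need to fuse. Dcstamp (ENSMUSG00000022303; GRCm38 chromosome 15, 39745930 to 39760938, plus strand) had 255 UMIs in osteoclast-like cells, or 60.8 CPM (53.5 to 68.7), in 64 of 172 cells. It had 2 UMIs in macrophage-like and 3 in monocyte-like cells, ratios of 48.8 (13.4 to 405) and 52.8 (17.9 to 258). The skeletal cells had 12 UMIs among 67031925, or 0.179 CPM, 339-fold less (191 to 666), and 4 of the 12 came from 1 osteoblast-like cell. In 695 B lineage-like cells it was at 0, with a limit of 0.408 CPM. The osteoclast-like level was 149-fold this limit, without its own counting error. Osteoclast-like cells held 81.0% of its UMIs, the highest share of the 7 genes.

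Ocstamp (ENSMUSG00000027670; GRCm38 chromosome 2, 165393760 to 165400405, minus strand) had 239 UMIs in osteoclast-like cells, or 56.9 CPM (49.96 to 64.6), in 71 of 172 cells. Macrophage-like cells had 4 UMIs and monocyte-like cells 5, giving folds of 22.9 (8.82 to 84.6) and 29.7 (12.55 to 92.3). The skeletal cells had 11 UMIs, 347-fold less (190.5 to 705). It was also found at low levels in dendritic-like cells and in some unnamed clusters. Dendritic-like cells stood at 9.53 CPM (3.83 to 19.6), an unnamed cluster led by Tnf and Treml4 at 10.2 CPM (4.12 to 21.1), and an unnamed cluster led by Cxcl2 and Cd14 at 4.96 CPM (2.38 to 9.11). These levels rest on 7, 7 and 10 UMIs of Ocstamp, and the same groups had 1, 1 and 0 UMIs of Dcstamp. As log2 ratios with 1 CPM added, Ocstamp stood at 4.31 over monocyte-like cells, or 2.40 without Scrublet barcodes, and at 4.05 over macrophage-like cells, or 1.99 with at most 5% mitochondrial UMIs. The log2 ratio of Dcstamp over all skeletal cells, 5.71, was 4.14 with the latter limit. After thinning, 19.2% of osteoclast-like cells (13.6 to 25.9) had a Dcstamp UMI and 18.02% (12.6 to 24.6) an Ocstamp UMI, against 0 and 1 of 558 B lineage-like cells.

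Oscar encodes an immunoglobulin-like receptor for collagen that signals through an ITAM adaptor (ENSMUSG00000054594; GRCm38 chromosome 7, 3609813 to 3616157, minus strand). It was sparse, with 20 UMIs in 15 osteoclast-like cells, or 4.77 CPM (2.91 to 7.36). It was at 0 in macrophage-like and monocyte-like cells. The level was 2.55-fold and 4.14-fold their limits of 3 counts, without the counting error of its own 20 UMIs. With 1 CPM added the log2 ratio over either was 2.53. The ratio was 3.92 with at most 20% mitochondrial UMIs and 0.42 with at least 1000 genes. With at least 1000 genes the 129 osteoclast-like cells had 1 Oscar UMI. The 62 cells left unnamed there, led by Atp6v0d2 and Mmp9, stood at 10.8 CPM of Oscar. Their part in the lower ratio was not tested. Under the main setting the 8084 cells outside the osteoclast-like class held 13 Oscar UMIs. The skeletal cells had 4 of these, and no other named class had more than 3. After thinning, only 4 osteoclast-like cells kept a UMI.

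Calcr encodes the calcitonin receptor, which in mature osteoclasts receives the hormone that halts resorption (ENSMUSG00000023964; GRCm38 chromosome 6, 3685680 to 3764714, minus strand). It had 0 UMIs in 172 osteoclast-like cells, which allows a level of 0.715 CPM and 1.74% of cells holding a UMI at most. The cells kept held 8 Calcr UMIs in 6 cells, 4 in osteoblast-like, 2 in fibroblast-like and 1 in endothelial-like cells, and 1 in an unnamed cluster. No order of the classes can be read from so few.

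Nfatc1, the transcription factor of the set (ENSMUSG00000033016; GRCm38 chromosome 18, 80606205 to 80713071, minus strand), had 1139 UMIs in osteoclast-like cells, or 271 CPM (256 to 288), in 153 of 172 cells. The lowest cell was at 0, the median cell at 212 CPM and the highest at 1015 CPM. Macrophage-like cells stood at 23.7 CPM (16.7 to 32.5) and monocyte-like cells at 13.04 CPM (9.03 to 18.2), which overlap, and the folds were 11.47 (8.31 to 16.3) and 20.8 (14.8 to 30.2). The log2 ratio over monocyte-like cells, 4.28 with 1 CPM added, was 3.56 without Scrublet barcodes. Of the 6 genes found it was the most widely spread, and osteoclast-like cells held 11.9% of its UMIs. The antisense transcript AC123818.1 overlaps it.

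Chondrocyte-like cells stood at 115 CPM of Nfatc1 (112 to 118), endothelial-like cells at 82.7 CPM (77.1 to 88.6), hypertrophic chondrocyte-like cells at 79.9 CPM (71.1 to 89.5) and fibroblast-like cells at 69.4 CPM (60.4 to 79.3). Endothelial-like and hypertrophic chondrocyte-like cells do not differ beyond their intervals, and neither do hypertrophic chondrocyte-like and fibroblast-like cells. Osteoblast-like cells were lower, at 42.8 CPM (39.7 to 46.2). The osteoclast-like level was 3.01-fold that of all skeletal cells (2.82 to 3.21), below the 4-fold size, and 2.36-fold that of chondrocyte-like cells (2.21 to 2.52). Among chondrocyte-like clusters, the one led by Penk and Tnni2 reached 180.5 CPM (158 to 205) and the one led by Ucma and Nfatc2 160.5 CPM (153 to 168), which overlap, against 75.7 CPM (71.5 to 80.1) in the cluster led by Il17b and Gdf10. Some lymphocytes also had Nfatc1. An unnamed cluster of 39 cells led by Iglc1 and Ms4a1 stood at 246 CPM (197 to 303), which overlaps the osteoclast-like interval, and 29 T or NK-like cells at 198 CPM (145 to 264), which also overlaps it. Erythroid-like cells had the lowest level, 2.54 CPM (1.45 to 4.13).

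After thinning, a UMI of Nfatc1 remained in 56.98% of osteoclast-like (49.2 to 64.5), 39.1% of chondrocyte-like (36.9 to 41.4), 34.0% of endothelial-like (30.6 to 37.6), 12.8% of macrophage-like (7.20 to 20.6), 3.49% of monocyte-like (1.29 to 7.44) and 1.28% of erythroid-like cells (0.47 to 2.78). The monocyte-like share overlaps the erythroid-like share.

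When the osteoclast-like cells were clustered on their own, again without the 7 genes and the Mmp genes, they fell into 3 sub-clusters. This step was added after the first clusters had been seen, and the levels below are a description, since the genes that formed the sub-clusters may vary with the 7. A C1q-rich sub-cluster of 81 cells had 907.4 CPM of C1qa. A cycling sub-cluster of 39 cells had 519 CPM of Top2a, a gene of dividing cells, against 269.7 CPM in the C1q-rich cells and 13.5 CPM in the remaining cells. An Mmp9-rich sub-cluster of 52 cells had 3403 CPM of Mmp9, the gelatinase of osteoclasts, against 318 CPM in the C1q-rich cells. Median depths were 21117, 26410 and 23644 UMIs, and the median mitochondrial share was 5.32%, 5.15% and 6.41%. The 11 macrophage markers together stood at 2764 CPM in the C1q-rich, 368 CPM in the cycling and 503 CPM in the Mmp9-rich cells. The 9 osteoclast markers together stood at 913, 1220 and 5287 CPM, against 301 CPM in macrophage-like cells. In the C1q-rich cells the macrophage sum was thus the larger. Mmp9, which gave the last sub-cluster its name, is 1 of the 9 and held 318, 434 and 3403 CPM of their sums. Of the other osteoclast markers, Atp6v0d2 stood at 210, 313 and 768 CPM and Tnfrsf11a at 112, 119 and 125 CPM. The part of either list in the levels that follow was not tested.

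Acp5 stood at 1519 CPM (1463 to 1577) in the C1q-rich, 2305 CPM (2216 to 2396) in the cycling and 5663 CPM (5533 to 5796) in the Mmp9-rich cells. Ctsk followed the same order with wider steps, at 548 CPM (514 to 582.5), 1391 CPM (1322 to 1462) and 5457 CPM (5329 to 5587). The Mmp9-rich level was 3.73-fold the C1q-rich level for Acp5 (3.57 to 3.90) and 9.97-fold for Ctsk (9.32 to 10.7). The ratio between these enzymes therefore was not the same within the class. The median C1q-rich cell had 0 Ctsk and 853 CPM of Acp5, whereas the median Mmp9-rich cell had 4907 CPM of Ctsk and 5276 CPM of Acp5.

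The fusion genes were highest in the same cells. Dcstamp stood at 18.6 CPM (12.9 to 25.9) in C1q-rich, 34.5 CPM (24.4 to 47.3) in cycling and 145 CPM (125 to 167) in Mmp9-rich cells. Ocstamp stood at 21.8 CPM (15.6 to 29.7), 27.2 CPM (18.37 to 38.9) and 134 CPM (114 to 156). For both genes the C1q-rich and cycling intervals overlap and the Mmp9-rich interval lies above them. The folds of Mmp9-rich over C1q-rich cells were 7.80 (5.39 to 11.6) and 6.13 (4.32 to 8.88). Of the 20 Oscar UMIs, 19 lay in Mmp9-rich cells, at 15.0 CPM (9.05 to 23.5), 1 in C1q-rich and 0 in cycling cells.

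Of the 6 genes, Nfatc1 varied least, at 160.0 CPM (142 to 179) in C1q-rich, 319 CPM (286 to 354) in cycling and 391.8 CPM (358 to 428) in Mmp9-rich cells. Its step between C1q-rich and cycling cells was 1.99-fold (1.70 to 2.33), and that between cycling and Mmp9-rich cells 1.23-fold (1.07 to 1.41). Of the 7 genes, 4 (Ctsk, Oscar, Dcstamp and Ocstamp) were at least 4-fold higher in Mmp9-rich than in C1q-rich cells, where 1.13% of 7812 genes with at least 10 CPM were, and 4.33% were at least 4-fold lower. As a sum over its cells, even the C1q-rich sub-cluster stood above macrophage-like cells, 5.05-fold for Acp5 (4.59 to 5.58), 67.7-fold for Ctsk (39.4 to 128) and 6.76-fold for Nfatc1 (4.81 to 9.75). The Ctsk fold does not hold for each cell, since the median C1q-rich cell had no Ctsk, as given above. Without the C1q-rich cells the summed level of the 7 genes in the class was 8205 CPM, and 6 of the 7 genes were at least 4-fold higher than in macrophage-like cells.

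**Figure D3:**
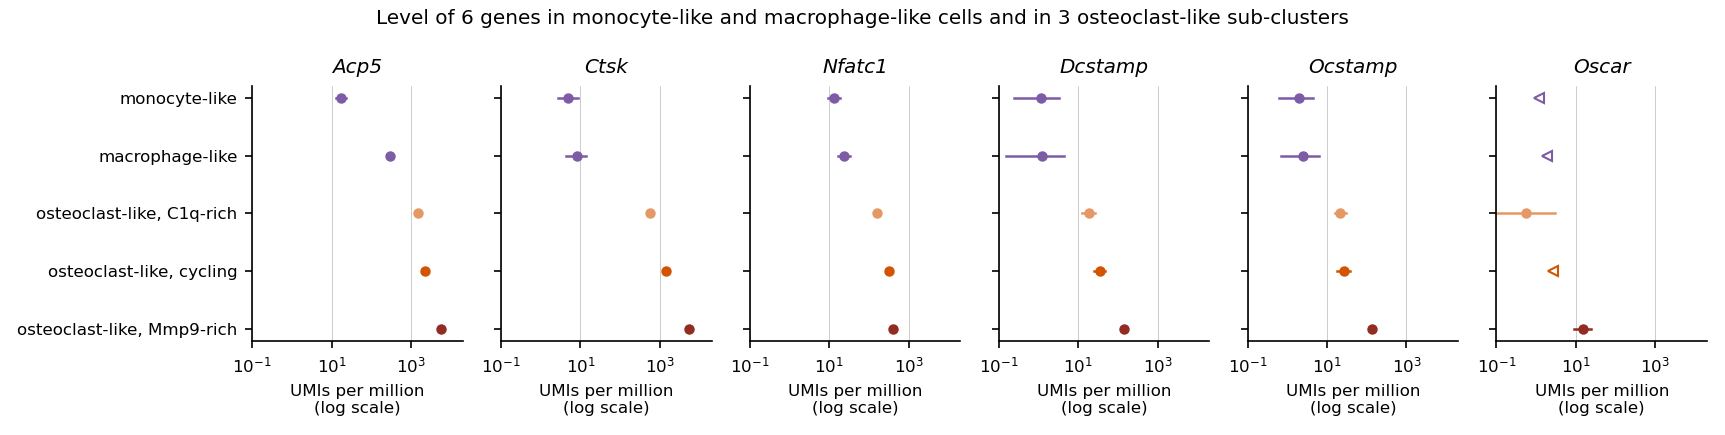
Level of 6 genes, in CPM on a log scale with 95% Poisson intervals, in monocyte-like and macrophage-like cells and in the 3 sub-clusters of osteoclast-like cells. Open triangles mark the limit of 3 counts where a group had 0 UMIs. All 6 genes are highest in the Mmp9-rich cells, and Oscar is found almost only there.

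Single cells showed in what combinations the genes occurred. After thinning to 5000 UMIs, a Ctsk UMI was found in 87 osteoclast-like cells, and 86 of these also had Acp5. In the other direction, 70 of 156 cells with Acp5 had no Ctsk. All 33 cells with Dcstamp and 29 of 31 cells with Ocstamp had Acp5, and 26 and 25 of them had Ctsk. For Acp5 these shares, 100% and 93.5%, lie near the 90.7% of all 172 cells. For Ctsk they were 78.8% and 80.6%, against 50.6% of all cells. Dcstamp and Ocstamp were found together in 13 cells, with 20 and 18 cells holding only the one or the other. Nfatc1 was found in 98 cells, of which 65 had Ctsk. At this depth 11 cells had none of the 7 genes and 1 cell had 6, and a missing UMI does not show that a gene was off. Counted without thinning, 14 cells had 6 of the genes, 13 of them in the Mmp9-rich sub-cluster, and 1 cell had none. In monocyte-like cells 154 of 172 thinned cells had none of the 7, and in macrophage-like cells 63 of 109 had exactly 1.

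The limit on mitochondrial UMIs removed many transcripts of these genes. Over the 8705 barcodes with at least 1600 genes, the 449 cells with more than 10% mitochondrial UMIs (5.16% of cells) held 23.3% of the Acp5, 23.7% of the Ctsk, 30.9% of the Dcstamp, 30.8% of the Ocstamp and 62.9% of the Oscar UMIs, but 4.29% of the Nfatc1 UMIs. Few cells carried them. The 10 cells with the most Acp5 held 4680 of its 5508 UMIs there, and 55 of 56 Oscar UMIs lay in 10 cells. Of 90 cells with at least 1000 CPM of both Acp5 and Ctsk, 17 had at most 5% mitochondrial UMIs, 57 had 5 to 10% and 16 had more.

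With a limit of 20% the osteoclast-like class had 187 cells, 13 of them above 10%. Acp5 then stood at 3585 CPM (3530 to 3641), Ctsk at 2807 CPM (2758 to 2856), Dcstamp at 79.0 CPM (71.1 to 87.6), Ocstamp at 76.4 CPM (68.6 to 84.9), Nfatc1 at 283 CPM (268 to 299) and Oscar at 14.1 CPM (10.8 to 17.99). Oscar moved most, 64 UMIs against 20. Calcr had 1 UMI. With a limit of 5% the class had 45 cells, and Ctsk stood at 753 CPM (704 to 805). The part of RNA quality in these values was not tested.

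**Figure D4:**
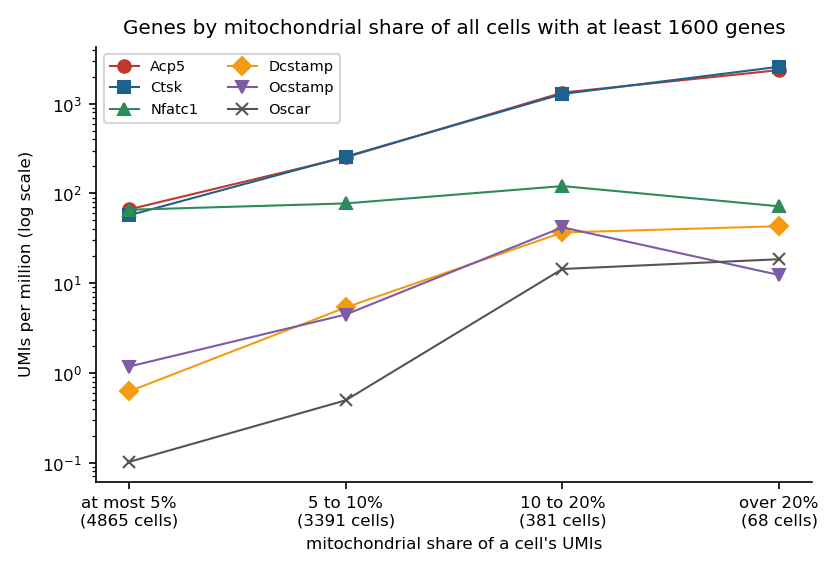
Level of 6 genes, in CPM on a log scale, over the 8705 cells with at least 1600 genes, split by the share of a cell's UMIs that is mitochondrial; the number of cells stands under each bin. Acp5 and Ctsk stand at 66.3 and 56.98 in cells with at most 5% and at 1331 and 1285 in cells with 10 to 20%, and Nfatc1 stays between 65.7 and 121.

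Other genes of the pathway were taken from 6 lists with 56 genes. Of the 55 with at least 10 CPM in either class, 3 were at least 4-fold higher in osteoclast-like than in macrophage-like cells. Another 7 were at least 4-fold lower. Over all genes 2.24% were higher and 6.89% lower. The median fold of the 55 was 0.87, against 1.01 over all genes. Jdp2, an AP-1 family factor, stood at 593 CPM against 147, Pstpip1, an adaptor of the podosome cytoskeleton, at 249.7 against 13.1, and the kinase Tec at 22.6 against 5.603. The lower genes included Irf8, a repressor of osteoclast formation (18.1 against 387 CPM), the tetraspanin Cd81, the CD47 receptor Sirpa, Lyn, Ctsd and Atp6v0a1.

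Against monocyte-like cells 7 of 54 pathway genes were at least 4-fold higher and 3 lower, where 6.84% of all genes were higher and 7.12% lower. The median fold was 1.34 against 1.09. Mitf stood at 56.9 against 4.22 CPM and Src, the kinase needed for the ruffled border, at 82.9 against 1.15 CPM. Carbonic anhydrase Car2, the source of protons for acid secretion, stood at 88.2 against 16.9 CPM. The other higher genes were Atp6v1b2, Jdp2, Sh3pxd2a and Mmp14, and the lower ones Pira2, Irf8 and Bcl6. Against skeletal cells 30 of 55 were higher and 4 lower, where 8.37% of all genes were higher and 15% lower. The median fold was 6.72 against 1.23. All 9 ITAM co-receptor genes were higher there, among them the adaptor Tyrobp at 1550.5 against 21.4 CPM, and so were 7 of 10 acid secretion genes. The genes lower than in skeletal cells were Fos, Cd9, Cd81 and Adam12. The ITAM genes were not particular to osteoclast-like cells, since Tyrobp stood at 1902 CPM in macrophage-like and 1728 CPM in monocyte-like cells. The median fold of the 9 was 0.733 and 0.732 against these classes. Within the osteoclast-like class 3 of 52 pathway genes were at least 4-fold higher in Mmp9-rich than in C1q-rich cells, and none was lower. They were Car2 (182 against 34.9 CPM), Vcl (36.4 against 8.73 CPM) and Pstpip1 (539 against 134 CPM). Over all genes 1.13% were higher and 4.33% lower.

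The genes most alike over the 35 clusters were sought among 12341 genes by the Pearson correlation of log2(CPM + 1), given without a test because the clusters share 1 library. The 12 unnamed clusters, with 229 cells marked as doublets, are among the 35. For Ocstamp the most alike genes were Slc37a2 (r = 0.93), the RANK gene Tnfrsf11a (r = 0.91) and the proton pump gene Atp6v0b (r = 0.87). For Dcstamp they were Cyp2s1 (r = 0.85), Atp6v0d2 (r = 0.85) and St18 (r = 0.84), and for Acp5 Wdr91 (r = 0.85), Slc37a2 (r = 0.85) and Tnfrsf11a (r = 0.84). Ctsk was most alike to Src (r = 0.77), Adcy3 (r = 0.73) and Plekhf1 (r = 0.70), Nfatc1 to Micall1 (r = 0.85), Utp14b (r = 0.79) and Smad7 (r = 0.79), and Oscar to Fam109a, Cyp2s1 and Slc4a2 (r = 0.66, 0.66 and 0.65). Oscar had 33 UMIs in the cells kept, and none of its genes stayed when genes with low counts were searched too. Calcr, with 8 UMIs, gave r of at most 0.61 (Susd4, Pcdh20 and Cxxc4). Among the 7 genes themselves, Acp5 and Ocstamp (r = 0.83) and Dcstamp and Ocstamp (r = 0.81) were most alike, Acp5 and Ctsk had r = 0.35, and Acp5 and Nfatc1 had r = -0.05.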

How the data were processed

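Dissociated tibia cells were run as 1 10x Genomics library. The authors deposited counts of UMIs per gene and barcode, not normalized, made with Cell Ranger 3.1.0 against mm10, to which the reporter's tdTomato and WPRE sequences had been added. The annotation release and the setting for strand are not given in the sources used here. A second deposited count matrix holds 98 exogenous sequences. The P56 sample was not analysed here. Coordinates are from GENCODE M21 on GRCm38.

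A cell was kept with 1600 genes or more, and with no more than 10% of its UMIs mitochondrial or 50% from ribosomal protein genes. Each cell was scaled to 10000 counts on a log scale, and 2000 variable genes without the 7 genes, the Mmp genes and Pth1r (3 of the 7 would have been among them) gave 30 principal components, 20 neighbours and Leiden clusters at resolution 1 (Python 3.11.15, scanpy 1.11.5, igraph 0.11.9, scipy 1.17.1, seed 1). Genes found in fewer than 3 cells were dropped. The 3 clusters with at least 100 CPM of Csf1r and 50 CPM of Ptprc (1045 cells), which held osteoclast and macrophage genes together, were clustered again at resolution 0.6, and the osteoclast-like cells once more. A name came from 22 marker lists. It needed the most markers among the 10 genes highest by fold, with 10 CPM added, and the highest mean z-score. It also needed 3 markers at 10 CPM and, outside skeletal names, under 5000 CPM of Col2a1. Skeletal names needed under 50 CPM of Ptprc, and among skeletal lists the highest z-score was not required. Leading markers of other lists could not outnumber those of the name. A cluster without a leading marker could be named by its z-score, as the endothelial-like cluster led by Eln and Stmn2 was. Osteoclast, macrophage, monocyte and dendritic names were allowed only in the second clustering, and no other names there. The second step, its limits and the naming rule were set after clusters had been seen. Names may differ from those of the study. Scrublet, at an expected rate of 10%, marked 588 of 14181 barcodes (4.15%), which were kept. The 4-fold rule needed more than 3 counts in the higher class, with lower counts set to 3.

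Intervals are exact Poisson, Clopper-Pearson or, for ratios, conditional binomial intervals. PCR and cell differences are not in them. With 1 library no test was run. Fold and correlation steps were tested on simulated data. Genes named are the 7, the pathway lists, the 3 genes most alike to each of the 7, markers, and leading genes of clusters. Neighbour genes needed 100 UMIs and 10 CPM in a cluster, and clusters 20 cells. The 7 genes and all lists were chosen with earlier results of these data known. The values of 1 pathway gene are not reported here.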

Additional observations from a re-analysis of the deposited data

Results flagged for a closer look

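Cells above the limit of 10% mitochondrial UMIs were outside the comparisons made under that limit, and 6 of the 7 genes stood there above the 0.798 CPM that a count of 0 allows. In these 449 cells Acp5 stood at 1466 CPM, Ctsk at 1453 CPM, Oscar at 14.9 CPM, Dcstamp at 37.5 CPM, Ocstamp at 38.1 CPM and Nfatc1 at 114.4 CPM. The 8256 cells kept stood at 132.2, 127.9, 0.240, 2.29, 2.34 and 69.9 CPM. The difference has no replicate.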

How the results depend on the processing

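The numbers of genes at least 4-fold higher stayed at 5 or 6 of 7 against macrophage-like cells, 5 or 6 against monocyte-like cells and 4 or 5 against skeletal cells under all 10 alternatives that give them. The summed level of the 7 genes in osteoclast-like cells, 5614 CPM, moved to 5468 at resolution 1.5, 3100 with at most 5% and 6845 with at most 20% mitochondrial UMIs, 2673 with at least 1000 genes, 5499 without Scrublet barcodes and 5096 as a mean over cells. Chosen after seeing the data, a second clustering at resolution 1 gave 9761 CPM in 74 cells, and leaving out the C1q-rich sub-cluster 8205 CPM. With at least 1000 genes, 62 cells were left unnamed for their Col2a1 and stood at 4354 CPM of Ctsk. Their part in the 1000-gene value, like other causes of these moves, was not tested. Of 231 log2 ratios 50 moved beyond counting error, and those of Ctsk and Acp5 over monocyte-like cells went from 8.55 to 3.74 and from 7.35 to 4.31 without Scrublet barcodes. Scrublet had marked 0 cells of either class, and clustering anew gave 151 monocyte-like cells against 173 and 171 osteoclast-like against 172. The ratio of Calcr over skeletal cells, which rests on 0 and 6 UMIs, was -0.12 and ran from -0.92 to 0.20. No other ratio turned its sign. Thinning to 3000 UMIs moved 11 of 28 shares. Without the filter on low counts, the genes most alike were the same for 3 of the 7. No paired analysis was possible because the 4 sequencing entries were counted together as 1 library, and leaving out a replicate was not possible for the same reason. Oscar rests on 33 and Calcr on 8 UMIs in the cells kept.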

Other observations

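Among the unnamed clusters, 34 cells led by haemoglobin genes and Atp6v0d2, 15 of them marked by Scrublet, stood at 1160 CPM of Acp5 and 1296 CPM of Ctsk, the latter in 8 of the cells, with an Acp5 to Ctsk ratio of 0.895 (0.813 to 0.985). A cluster of 23 cells led by C1qa and Vpreb1, 7 of them marked, stood at 232 CPM of Ctsk, all of its 113 UMIs in 1 cell. These clusters were left out of all classes.

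WPRE, the reporter's tail sequence, had 50 UMIs in osteoclast-like cells (11.9 CPM), found in 15.1% of them, against 16.8 CPM and 14.1% in B lineage-like and 1148 CPM in hypertrophic chondrocyte-like cells. In 1 osteoclast-like cell, of the Mmp9-rich sub-cluster, it had more than 14 UMIs.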
